A study of Mus musculus with 12 samples.

Results

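Collagen RNA was followed in glial cells cultured from mouse cortex. The collagen genes were taken as all protein-coding genes of the deposited count table with a symbol of the form Col, number, a, number, and a total of at least 12 counts over the 12 libraries. The rule gave 44 of the 43322 genes in the table, and 39 of them were among the 17077 genes that passed a filter on low counts and were tested. The other 5 (Col6a4, Col6a6, Col10a1, Col13a1 and Col28a1) had totals of 14 to 60 counts, against at least 101 counts in each gene that passed. The cultures were of wild-type CD1 mice of postnatal day 3 to 5, each made from the frontal cortex of 1 mouse, expanded with epidermal growth factor at 10 ng/ml, split once at day 7 in vitro and labelled as cultured astrocytes. There were 3 groups of 4 libraries. One received vehicle, one was treated for 60 min with 3 µM thapsigargin, which blocks the SERCA pump that fills the endoplasmic reticulum (ER) with calcium, and one was kept for 60 min in medium without calcium and with EGTA, a calcium chelator. The submitters call the 4 samples of a group biological replicates and state the aim as a profile of calcium signalling components. RNA was taken from whole cultures, so no group separates astrocytes from other cells.

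Collagens are secreted proteins of 3 chains wound into a triple helix. The chains are hydroxylated and folded in the ER by enzymes and chaperones, several of which bind or need calcium, and leave it in enlarged carriers. Outside the cell, fibrillar collagens are trimmed and crosslinked into fibrils. Collagen IV forms the network of basement membranes, collagen VI forms beaded filaments, and FACIT collagens decorate fibrils. In the brain, collagen is concentrated in the meninges and the basement membranes of vessels, and is sparse between neural cells.

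Promoter sequences are shown for 3 genes, picked after their values were seen: Col8a1, which had the largest decrease among the genes called with thapsigargin, and Col3a1 and Col11a1, a pair of fibrillar genes that were respectively low and high in the libraries numbered 4. Each sequence is the 250 bases before the RefSeq start site on build GRCm38.p6, 5′ to 3′ on the gene's strand, and none overlaps an exon of the GENCODE vM21 annotation. The locations are chr16:57754738-57754987 on the minus strand, chr1:45311288-45311537 on the plus strand and chr3:114030290-114030539 on the plus strand. Capitals mark matches, on either strand, to TATAAA (the TATA box), CCAAT or GGGCGG (a GC box).
Col8a1: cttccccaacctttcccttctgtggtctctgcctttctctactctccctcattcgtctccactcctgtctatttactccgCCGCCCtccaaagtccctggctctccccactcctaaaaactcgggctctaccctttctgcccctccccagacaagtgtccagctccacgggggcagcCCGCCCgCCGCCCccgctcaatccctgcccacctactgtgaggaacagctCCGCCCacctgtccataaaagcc
Col3a1: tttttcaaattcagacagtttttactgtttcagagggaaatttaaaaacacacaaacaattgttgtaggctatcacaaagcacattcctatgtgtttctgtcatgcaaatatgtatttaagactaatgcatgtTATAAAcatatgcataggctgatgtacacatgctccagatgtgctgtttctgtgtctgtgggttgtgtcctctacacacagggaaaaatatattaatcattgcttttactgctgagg
Col11a1: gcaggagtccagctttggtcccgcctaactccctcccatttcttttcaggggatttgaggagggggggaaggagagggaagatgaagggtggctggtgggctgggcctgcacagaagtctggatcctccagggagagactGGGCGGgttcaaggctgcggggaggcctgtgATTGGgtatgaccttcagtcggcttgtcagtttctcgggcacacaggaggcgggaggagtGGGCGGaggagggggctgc
Col8a1 held 4 GGGCGG matches, 23, 66, 73 and 170 bases before the start, and neither of the other marked motifs. Col3a1 held TATAAA 117 bases before the start and no GGGCGG. Col11a1 held GGGCGG 19 and 110 bases before the start and CCAAT, read on the other strand, 79 bases before it. RefSeq promoter windows of 250 bases before to 50 bases after the start were matched for 35 of the 44 genes. Entries were not found for Col1a1, Col2a1, Col4a3, Col5a2, Col9a3, Col12a1, Col14a1, Col22a1 and Col26a1. GGGCGG lay in the windows of 22 of the 35 genes (62.9%), against 38.2% of the 27025 genes with a window. CCAAT lay in 13 (37.1%, against 41.1%) and TATAAA in 5 (14.3%, against 15.7%). The AP-1 site TGANTCA lay only in the window of Col6a1 and the cAMP response element TGACGTCA only in that of Col24a1, 1 gene each of 35, against 8.97% and 2.03% of genes. The ER stress element, searched in its full consensus form, and TGATGNAA, a form of the ATF4 and CHOP composite site, were in none of the 35 windows, against 0.137% and 4.51% of genes. Of the motifs searched, only the ER stress element contains another, CCAAT. These matches describe letters, not binding.

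Library totals were 36191298 to 42568941 counts. Astrocyte markers were abundant: Slc1a3, the glutamate transporter GLAST, stood at or above 2079 CPM in every library, where CPM is a gene's counts relative to the library's total, on the usual per-megacount scale and with totals adjusted by the trimmed mean of M values (TMM). The libraries numbered 4 stood apart in all 3 groups. They alone expressed Xist, a non-coding RNA made by female cells, at 588 to 740 CPM, against at most 0.319 CPM in the other 9. Their deviations from the group means correlated with one another across genes at r of 0.814 to 0.836. Because of this, collagen results are given over all 12 libraries, blocked by replicate number, and without the libraries numbered 4. Among numbers 1 to 3, libraries of the same number were no more alike than others. With number 4 left out, their r was -0.144 to -0.00319, against -0.041 to 0.118 for different numbers. A comparison with the control of the same number is thus not one of known matched pairs.

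Levels between collagen genes were compared as CPM per kb of summed exon length, in the control group. Fibrillar and basement membrane chains led. Col5a2, a chain of collagen V, which nucleates fibrils, stood at 126.7 ± 4.12 CPM per kb (mean ± SD, n = 4), and Col1a2, the second chain of collagen I, at 126.6 ± 31.6. The spread of Col1a2 covered the level of Col5a2. Next were Col4a1 at 80.0 ± 3.66, Col1a1 at 79.6 ± 45.0 and Col4a5 at 64.2 ± 5.45 CPM per kb. The spread of Col1a1 covered the levels of both collagen IV chains. Col8a1, a chain of the short-chain network collagen VIII, stood at 50.2 ± 4.50, Col5a1 at 33.8 ± 4.96 and Col6a1 at 31.2 ± 11.9 CPM per kb. Of the summed level of all 44 genes, the 11 fibrillar genes held 53.0 to 54.3% in the 9 libraries numbered 1 to 3 and the 6 collagen IV genes 24.2 to 25.9%. Collagen VI held 5.46 to 6.20%, collagens VIII and X 4.83 to 6.67%, FACIT collagens 5.31 to 6.31% and multiplexins 3.10 to 3.47%. Transmembrane collagens held at most 0.156%. Together the 44 genes took 0.514 to 0.604% of all counts in those 9 libraries.

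**Figure D1:**
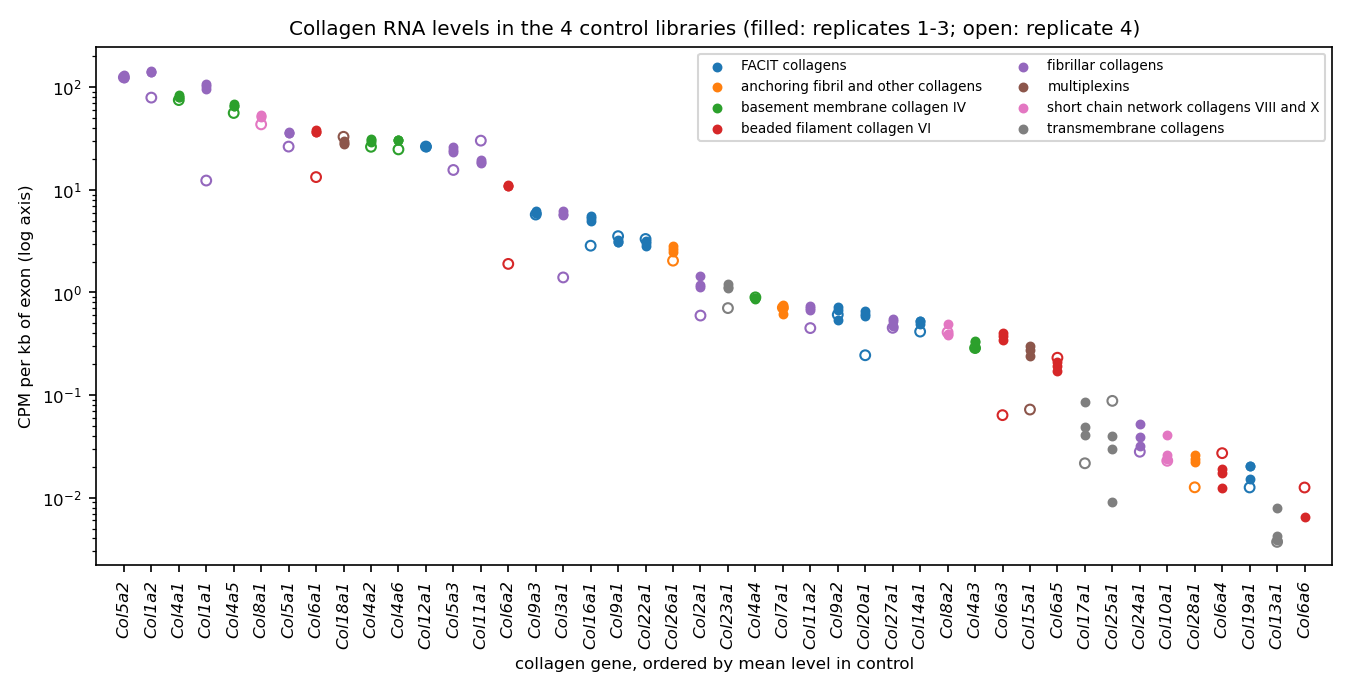
Level of each collagen gene in the 4 control libraries, in CPM per kb of exon on a log axis, ordered by mean and coloured by class. Filled points are replicates 1 to 3 and open points replicate 4, and a library with 0 counts has no point. Levels run from about 127 CPM per kb for Col5a2 down to genes that did not pass the filter, and the open points of Col1a1, Col6a2 and Col3a1 lie far below the filled ones.

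The libraries numbered 4 held less collagen RNA than the rest, in all 3 groups. Of the 39 tested genes, 16 (41%) were lower in all 3 libraries numbered 4 than in all other 9, against 12.2% of all tested genes, and only Col11a1 (2.56%) was higher, against 11%. Collagen genes took 0.356 to 0.454% of all counts there. In such bulk RNA, fewer cells of a type and less RNA per cell cannot be told apart. Col1a1, the first chain of collagen I, had 605, 577.5, 632.1 and 73.2 CPM in control libraries 1 to 4, 569, 571.3, 539.4 and 53.5 CPM with thapsigargin, and 585.7, 593.4, 655.8 and 80.0 CPM without calcium. In each group the library numbered 4 was far below the others, and its mean over groups was 11.6% of the mean of the other 9. Col1a2, whose product pairs with that of Col1a1, had 740.5, 728.6, 760.8 and 414.6 CPM in control, 588.9, 603.5, 580.8 and 283.3 CPM with thapsigargin and 693, 732, 813.7 and 445.1 CPM without calcium. It too was lowest in the library numbered 4 of each group, at 54.9% of the others.

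The gap was wide in collagen VI, whose 3 main chains assemble together. Col6a2 ran at 10.9 to 12.9 CPM in the libraries numbered 4 and 59.1 to 71.1 CPM in the other 9. Col6a3 ran at 0.692 to 0.939 CPM in the libraries numbered 4 and 3.64 to 5.03 CPM in the other 9. Col6a1 had 145.5, 145.8, 152.1 and 53.0 CPM in control, 136.8, 132.5, 139.1 and 49.1 CPM with thapsigargin and 143.1, 144.5, 164.7 and 59.9 CPM without calcium. The ratio of the 4th libraries to the others was thus 18.1% for Col6a2, 18.7% for Col6a3 and 37.3% for Col6a1, while Col6a5, a low chain, overlapped. Col3a1, the single chain of collagen III, ran at 6.59 to 10.5 CPM in the libraries numbered 4 and 29.1 to 34.8 CPM in the other 9. Col15a1, a multiplexin of vascular and muscle basement membranes, ran at 0.228 to 0.405 CPM in the libraries numbered 4 and 1.27 to 2.01 CPM in the other 9. The other genes lower without overlap were Col2a1, Col4a6, Col5a1, Col5a3, Col11a2, Col16a1, Col19a1, Col20a1 and Col23a1, at 41.1% (Col2a1) to 80.4% (Col4a6) of the others. By class, these 16 were 7 of 11 fibrillar, 3 of 4 collagen VI, 3 of 9 FACIT, 1 of 6 collagen IV, 1 of 2 multiplexin and 1 of 3 transmembrane genes tested. Col11a1, a fibrillar chain that can join collagen V molecules, went the other way, with 160.1, 150.1, 153.6 and 245.7 CPM in control, 129.5, 137.6, 136.8 and 191.1 CPM with thapsigargin and 146, 161.9, 170.4 and 268.5 CPM without calcium. Every library numbered 4 was above all other 9 for Col11a1. Col5a2, with 4th libraries at 95.6% of the others, and Col18a1 at 114.3% overlapped between the sets.

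**Figure D2:**
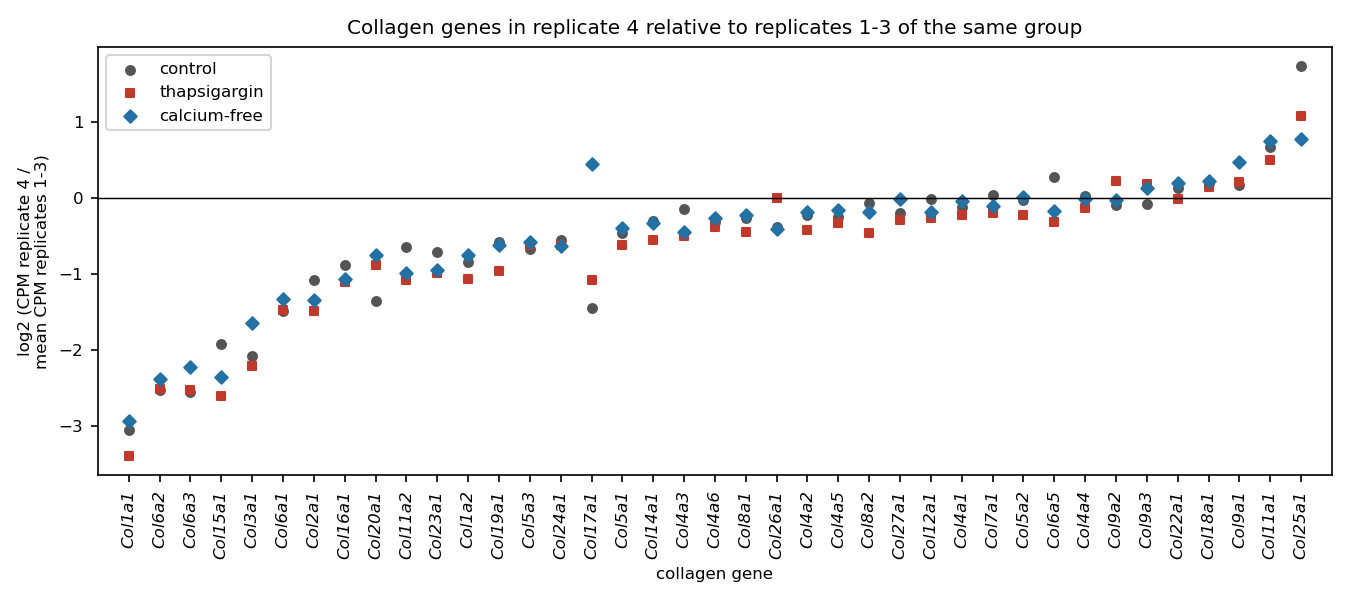
Level of each of the 39 tested collagen genes in replicate 4 of a group relative to the mean of replicates 1 to 3 of that group, as log2 of the CPM ratio, with 1 point per group. Col1a1 lies lowest in all 3 groups, and Col11a1 lies above 0 in all 3; Col25a1, at under 1 CPM in every library, overlapped.

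Chains of 1 molecule kept their proportions across these libraries in some pairs and not in others. The ratio of Col1a1 to Col1a2, in CPM per kb, was 0.698 to 0.851 in the libraries numbered 1 to 3 and 0.155 to 0.166 in those numbered 4. Col6a1 to Col6a2 was 3.23 to 3.50 against 6.79 to 7.02, and Col11a1 to Col5a2 was 0.138 to 0.155 against 0.238 to 0.242. Col5a1 to Col5a2 was 0.269 to 0.293 against 0.2109 to 0.2114, and Col5a3 to Col5a2 was 0.165 to 0.211 against 0.116 to 0.156. Between collagens III and I, Col3a1 to Col1a2 was 0.0384 to 0.0499 against 0.0177 to 0.0222. None of these ranges overlapped. The head-to-head pairs of collagen IV moved less: Col4a1 to Col4a2 was 2.5 to 2.75 against 2.85 to 3.03, and Col4a5 to Col4a6 was 2.07 to 2.24 against 2.26 to 2.30. The ranges overlapped for Col6a3 to Col6a2, at 0.0320 to 0.0435 against 0.0335 to 0.0403. They also overlapped for Col8a2 to Col8a1, Col9a1 to Col9a3, Col9a2 to Col9a3 and Col4a3 to Col4a4. With thapsigargin, Col1a1 to Col1a2 was higher than in the control library of the same number in 4 of 4, with a mean log2 change of 0.19. The exact sign-flip permutation test over the 4 numbers, two-sided, gave p = 0.125, the smallest that 4 pairs allow, and 0.271 adjusted over the 13 chain ratios compared. Col3a1 to Col1a2, Col5a3 to Col5a2, Col4a5 to Col4a6 and Col4a3 to Col4a4 were also higher in 4 of 4. Col9a1 to Col9a3 was higher in 0 of 4. All of these had the same p in that test.

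**Figure D3:**
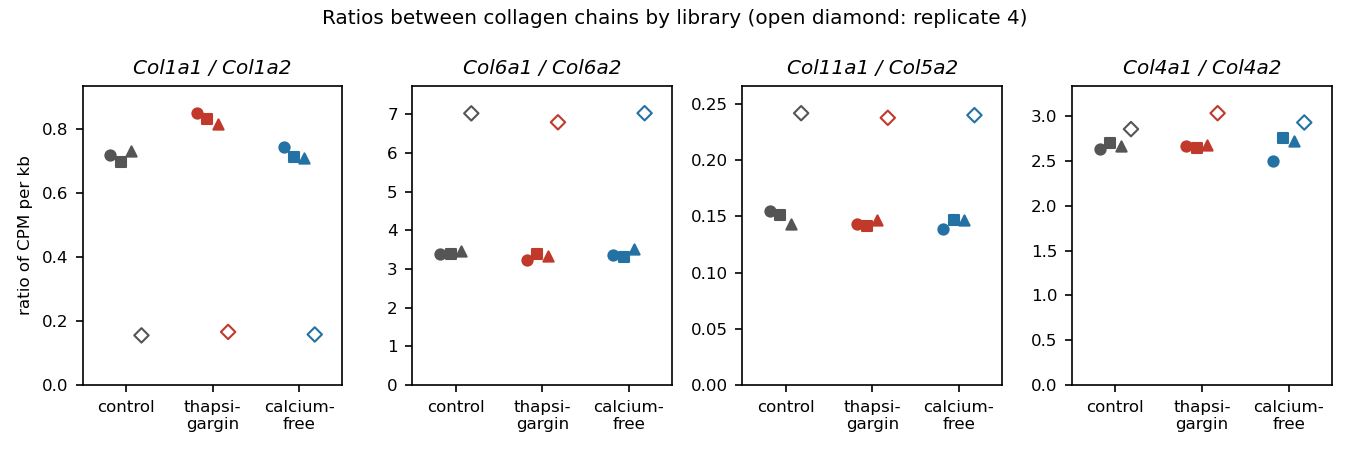
Ratios of 4 pairs of collagen chains in every library, in CPM per kb, by group. Filled symbols are replicates 1 to 3 and open diamonds replicate 4; the Col1a1 to Col1a2 ratio falls from at least 0.698 to at most 0.166, and the Col6a1 to Col6a2 and Col11a1 to Col5a2 ratios are higher in replicate 4.

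Markers of other cells moved with these libraries in part. Lack of overlap was judged over the 3 groups pooled, where 12.2% of all tested genes were lower and 11% higher. Of 15 fibroblast and leptomeningeal markers, 5 (Lum, Pdgfrb, Foxc2, Aldh1a2 and Thy1) were lower without overlap in the libraries numbered 4 and 2 (Pdgfra and Slc6a13) were higher. Slc6a13, at most 0.334 CPM, did not pass the filter on low counts. The list summed to 1299 to 1559 CPM in the libraries numbered 4 and 1444 to 1783 CPM in the other 9, and most of it was Islr and Thy1. Within each group this sum was lowest in the library numbered 4, at 1470 CPM in control, 1299 CPM with thapsigargin and 1559 CPM without calcium. Levels within the list were mixed. Dcn (decorin) and Lum (lumican), proteoglycans of fibroblasts in many tissues, were at most 1.11 and 0.408 CPM. Foxc2, Tbx18, Aldh1a2, Slc6a13, Slc47a1 and Crabp2 were also low, at 2.39 CPM or less. The rest of the list was higher: Ogn ran at 71.2 to 156 CPM, Pdgfrb at 21.2 to 37.7 CPM and Foxc1 at 16.0 to 23.8 CPM. Of 10 endothelial markers, 3 (Flt1, Esam and Slco1a4) were lower, with a sum of 54.7 to 60.3 against 71.0 to 83.8 CPM. Most of that sum was Slco1a4, at 45.3 to 50.0 against 56.2 to 66.2 CPM. Cldn5, Cdh5, Tek, Tie1 and Emcn were near 0 throughout. None of 9 pericyte and smooth muscle markers was separated over the pooled groups (2550 to 3275 against 2634 to 3345 CPM). Within each group, Notch3, Tagln and Rgs5 were nevertheless lowest in the library numbered 4. Notch3 was there at 84.3 CPM in control, 52.8 CPM with thapsigargin and 91.9 CPM without calcium, against at least 111, 74.1 and 104 CPM in the others. Acta2 and Myh11 were not lowest there in every group. Most of the summed level of the 9 was Acta2 and Tagln, and Vtn, Kcnj8, Abcc9 and Higd1b were near 0. Of 10 microglial markers, 9 were lower (122 to 147 against 167 to 234 CPM). Among 10 astrocyte markers Gfap, Aqp4 and S100b were lower (sums of 5694 to 6709 against 6285 to 7863 CPM). The sum of the 10 was also lowest in the library numbered 4 of each group (6500 CPM in control, 5694 CPM with thapsigargin, 6709 CPM without calcium). Of 8 proliferation markers, 6 were higher (2067 to 2184 against 1603 to 1796 CPM). For 8 oligodendrocyte markers (1889 to 2067 against 1630 to 1830 CPM) and 9 neuronal markers (352 to 418 against 377 to 456 CPM), 1 and 0 were higher and 1 and 2 were lower. The neuronal sum, too, was lowest in the library numbered 4 of each group (398 CPM in control, 352 CPM with thapsigargin, 418 CPM without calcium). The part of these cells in the collagen differences was not tested.

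With thapsigargin, 8 of the 39 tested collagen genes fell and none rose against control, in edgeR's quasi-likelihood test over all 17077 genes at a Benjamini-Hochberg adjusted p under 0.05. Of all tested genes, 14.8% were called lower and 16.4% higher, against 20.5% and 0% of the collagen genes. With the replicate block 21 collagen genes (53.8%) were lower, all 8 included, and none higher, where the background was 28.2% lower and 23% higher. Without the libraries numbered 4, 14 (35.9%) were lower and none higher, against 21.2% and 24.4%. These 14 held 7 of the 8, without Col8a2 (0.117). With the block as well, 13 were lower, with 6 of the 8, and Col4a4 and Col8a2 were lost. The background of that fit was 20% lower and 23.5% higher. None was higher in DESeq2, which called 7 lower, where its background was 14.8% lower and 19.8% higher. At an unadjusted p under 0.05 in edgeR none was higher either, but the share of all genes at that threshold was not computed. The median log2 fold change was -0.18 over the collagen genes and -0.05 over all tested genes, and 33 of 39 collagen genes had a negative value. Without thapsigargin replicate 4 the collagen median was -0.07.

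Both collagen VIII genes fell. Col8a1 (chr16:57444619-57575100, minus strand, build GRCm39, as are the gene locations that follow) had 272, 263, 268.7 and 222.5 CPM in control and 182.3, 197.3, 192.2 and 140.4 CPM with thapsigargin. All 4 treated libraries were below all controls. Its means were 256.6 ± 23.0 and 178.1 ± 25.9 CPM (SD, n = 4 each), a log2 fold change of -0.53 ± 0.11 (SE) with edgeR adjusted p = 0.00256. Col8a2 (chr4:126180587-126208123, plus strand), the second collagen VIII chain, was low, with 1.78, 1.74, 2.23 and 1.84 CPM in control and 1.599, 1.46, 1.57 and 1.12 CPM with thapsigargin. The groups did not overlap, and the change was -0.40 ± 0.14 with edgeR adjusted p = 0.0421. That call was lost in 9 of the 12 fits that left out 1 library (controls 1 to 4, thapsigargin 2 to 4, calcium-free 1 and 2), at adjusted p up to 0.13. DESeq2 gave it an adjusted p of 0.0695.

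Col18a1 and Col5a2 fell as well. Col18a1 (chr10:76888013-77002351, minus strand) encodes the multiplexin of basement membranes from which endostatin is cut. It had 214, 217.8, 227.9 and 251.9 CPM in control and 175.3, 181.8, 178.5 and 198.1 CPM with thapsigargin, without overlap. The change was -0.31 ± 0.08 with edgeR adjusted p = 0.00806, and it was -0.26 without the libraries numbered 4. Col5a2 (chr1:45413491-45542442, minus strand) had 841.3, 810.5, 874.6 and 827.3 CPM in control and 735.7, 789.4, 756.8 and 654.7 CPM with thapsigargin. The highest treated library lay just below the lowest control. Its change was -0.19 ± 0.05 with edgeR adjusted p = 0.0183. It was -0.11 without the libraries numbered 4, and the call was lost without control 3 (adjusted p = 0.0588).

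Of 9 FACIT genes tested, 3 fell. Col9a1 (chr1:24216670-24291819, plus strand) and Col9a3 (chr2:180239895-180263985, plus strand) encode chains of collagen IX, best known from cartilage. Col9a1 had 13.1, 13.3, 13.8 and 15.02 CPM in control and 9.55, 10.9, 9.90 and 11.7 CPM with thapsigargin, and Col9a3 had 18.2, 18.4, 19.5 and 17.8 and 14.7, 15.2, 14.7 and 16.9 CPM. Neither gene overlapped between the groups. The changes were -0.39 ± 0.11 (edgeR adjusted p = 0.0194) and -0.26 ± 0.07 (adjusted p = 0.014). The Col9a1 call was lost without thapsigargin 1 or 3, at adjusted p up to 0.0572. The remaining chain gene, Col9a2, also did not overlap, with 1.86, 1.97, 1.497 and 1.67 and 1.21, 1.12, 1.27 and 1.39 CPM, but its value of -0.49 ± 0.19 had an adjusted p of 0.07 (0.0151 with the replicate block). Col22a1 (chr15:71667644-71906087, minus strand), a collagen of tissue junctions, had 27.8, 26.3, 29.2 and 30.5 CPM in control and 23.6, 24.3, 24.2 and 23.8 CPM with thapsigargin. Its treated libraries were close together and all below control, with a change of -0.25 ± 0.06 and edgeR adjusted p = 0.00839.

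Of the 6 collagen IV genes, only Col4a4 passed the test (chr1:82426140-82564570, minus strand), a chain of the mature kidney glomerulus network. It had 9.46, 9.42, 9.25 and 9.52 CPM in control and 8.48, 7.70, 7.68 and 7.26 CPM with thapsigargin, without overlap, a change of -0.27 ± 0.07 with edgeR adjusted p = 0.0105. Its head-to-head neighbour Col4a3, whose gene lies 76 bp away, had 2.95, 2.58, 2.99 and 2.58 and 2.94, 3.44, 3.34 and 2.30 CPM, which overlapped, with a value of 0.12 ± 0.15 (adjusted p = 0.603). The ratio of Col4a3 to Col4a4 was higher than in the same-numbered control in 4 of 4. The exact sign-flip permutation test gave p = 0.125 (adjusted 0.271), the smallest that 4 pairs allow, so it could not reach 0.05. Among the abundant collagen IV chains, Col4a1 had 668.5, 655.3, 689.6 and 618 CPM in control and 607.6, 645.7, 614.1 and 531.6 CPM with thapsigargin, and Col4a5 had 432.8, 430.6, 449.7 and 368.3 and 405.6, 402.3, 392.3 and 318.6 CPM. For both, each treated library was below its same-numbered control. Their values were -0.13 ± 0.07 (adjusted p = 0.168) and -0.15 ± 0.09 (adjusted p = 0.232), and both were called with the replicate block (0.0227 and 0.00221). So were Col4a2 and Col4a6, 5 of 6 with Col4a4. Without the libraries numbered 4, Col4a4 (0.0408) and Col4a5 (0.0465) were called, but not Col4a1 (0.35), Col4a2 (0.189) or Col4a6 (0.0899), and without those libraries and with the block no collagen IV gene was called. Leaving out thapsigargin 4 alone moved Col4a1 to -0.08 and Col4a5 to -0.07.

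**Figure D4:**
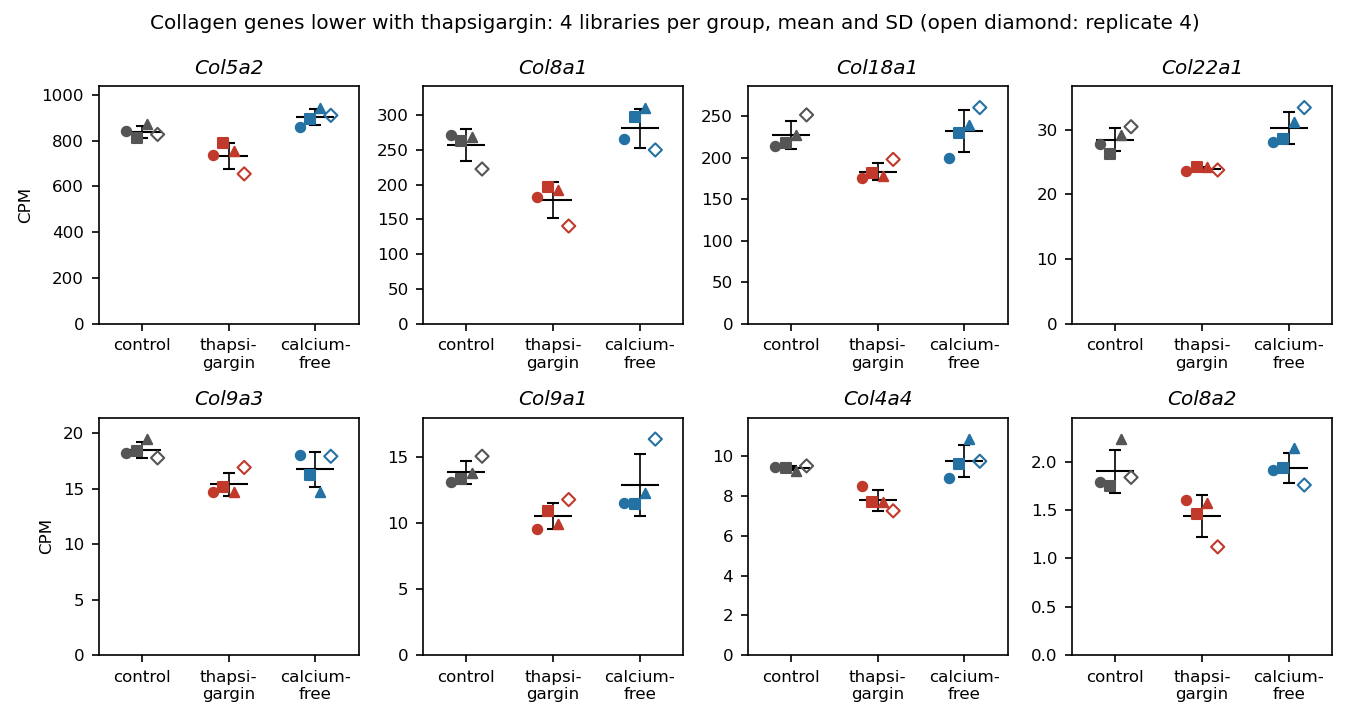
CPM of the 8 collagen genes that fell with thapsigargin, in every library of the 3 groups, with the mean (line) and SD (bar) of 4 libraries. Filled symbols are replicates 1 to 3 and open diamonds replicate 4; in each panel all 4 thapsigargin libraries lie below all 4 controls.

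The abundant collagen I genes were not called with all 12 libraries. For Col1a2 the value was -0.36 ± 0.26 with adjusted p = 0.34, but every treated library was below its same-numbered control, and the gene was called with the replicate block (-0.38, adjusted p = 0.000498) and without the libraries numbered 4 (-0.29, adjusted p = 0.000121). For Col1a1 the value was -0.12 ± 0.81 with adjusted p = 0.93, and it was called neither with the block (0.118) nor without those libraries (0.195). Col5a1, which pairs with Col5a2, had 305.8, 305.6, 315.8 and 225.1 CPM in control and 272, 276.8, 265.9 and 177.8 CPM with thapsigargin, a value of -0.22 ± 0.15 with adjusted p = 0.335 and 0.00128 with the block. Col6a1 was -0.12 ± 0.40 (adjusted p = 0.863, 0.0101 with the block, 0.171 without the libraries numbered 4). The values moved when a single library numbered 4 was left out: without control 4 and without thapsigargin 4, respectively, the value was -0.37 and 0.13 for Col6a1, -0.48 and 0.25 for Col1a1, -0.53 and -0.16 for Col1a2 and -0.32 and -0.09 for Col5a1. The other genes called with the block were Col2a1, Col11a1, Col11a2, Col16a1 and Col23a1, of which Col2a1 (0.0531) and Col11a2 (0.267) were not called without the libraries numbered 4.

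Lower values ran through most classes. The median log2 fold change was -0.19 in 11 fibrillar genes (1 called lower, 6 with the block), -0.15 in 6 collagen IV genes (1 and 5), -0.05 in 4 collagen VI genes (0 and 1), -0.46 in 2 collagen VIII genes (2 and 2), -0.25 in 9 FACIT genes (3 and 5), -0.35 in 3 transmembrane genes (0 and 1), -0.25 in 2 multiplexins (1 and 1) and -0.12 in Col7a1 and Col26a1 (0 and 0). Compared with the control library of the same number, 26 of 39 genes (66.7%) were lower in 4 of 4 libraries, against 34.4% of all tested genes, and 1 gene (Col27a1) was higher in 4 of 4 (2.56%, against 27%). All 4 treated libraries lay below all 4 controls for 9 genes (23.1%, against 15.1%) and above them for none (16.7% of all genes). The 31 genes that were not called had log2 values from -0.73 (Col25a1, SE 0.75) to 0.29 (Col17a1, SE 0.38), both at under 1 CPM in every library.

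In the calcium-free group no collagen gene was called against control in either direction by edgeR, with or without the replicate block, or by DESeq2. Of all tested genes, 3.78% were called higher and 1.55% lower by edgeR (10.4% and 7.01% with the block), and 6.35% and 2.36% by DESeq2. At an unadjusted p under 0.05, 1 gene was higher and 1 lower, but the share of all genes at that threshold was not computed. The smallest adjusted p was 0.111 (0.0654 with the block). The median log2 fold change was 0.04, against -0.01 over all tested genes, with 26 positive and 13 negative values. It was -0.07 without control 4 and -0.02 without calcium-free 3, so its sign rested on single libraries. Col7a1, the anchoring fibril collagen, had 6.54, 5.66, 6.97 and 6.58 CPM in control and 5.93, 4.36, 3.74 and 4.33 CPM without calcium. Only calcium-free replicate 1 reached the range of control, and the value was -0.49 ± 0.16 with edgeR adjusted p = 0.111. Col12a1, a FACIT collagen of tendon and mechanically loaded tissue, had 372.2, 374.7, 381.7 and 374.3 CPM in control and 388, 474.2, 528 and 406.5 CPM without calcium. It was the 1 gene whose calcium-free libraries all lay above control (2.56%, against 6.05% of all genes), and none lay below it throughout (against 4.44%). It had a value of 0.26 ± 0.09 and adjusted p = 0.151. Against the control of the same number, 7 genes (17.9%) were higher in 4 of 4 libraries and 3 (7.69%) lower, each against 16.8% of all genes. Without calcium-free replicate 1, Col12a1 was called higher and Col7a1 lower, where 4.93% of all genes were called higher and 3.48% lower. Without the libraries numbered 4, 1 gene, Col20a1, was called lower (2.56%, against 5.16%), and none higher (10.5%).

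The genes that fell with thapsigargin had these values without calcium: 0.13 for Col8a1, 0.03 for Col8a2, -0.10 for Col9a1, 0.03 for Col18a1, 0.05 for Col4a4, -0.14 for Col9a3, 0.09 for Col22a1 and 0.11 for Col5a2, all as log2 fold changes. In Col8a1 the calcium-free libraries had 265.7, 297.2, 310.9 and 249.99 CPM and in Col5a2 858.2, 896.4, 944.8 and 910.8 CPM, overlapping control in both. Both sets of fold changes use the same 4 controls.

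**Figure D5:**
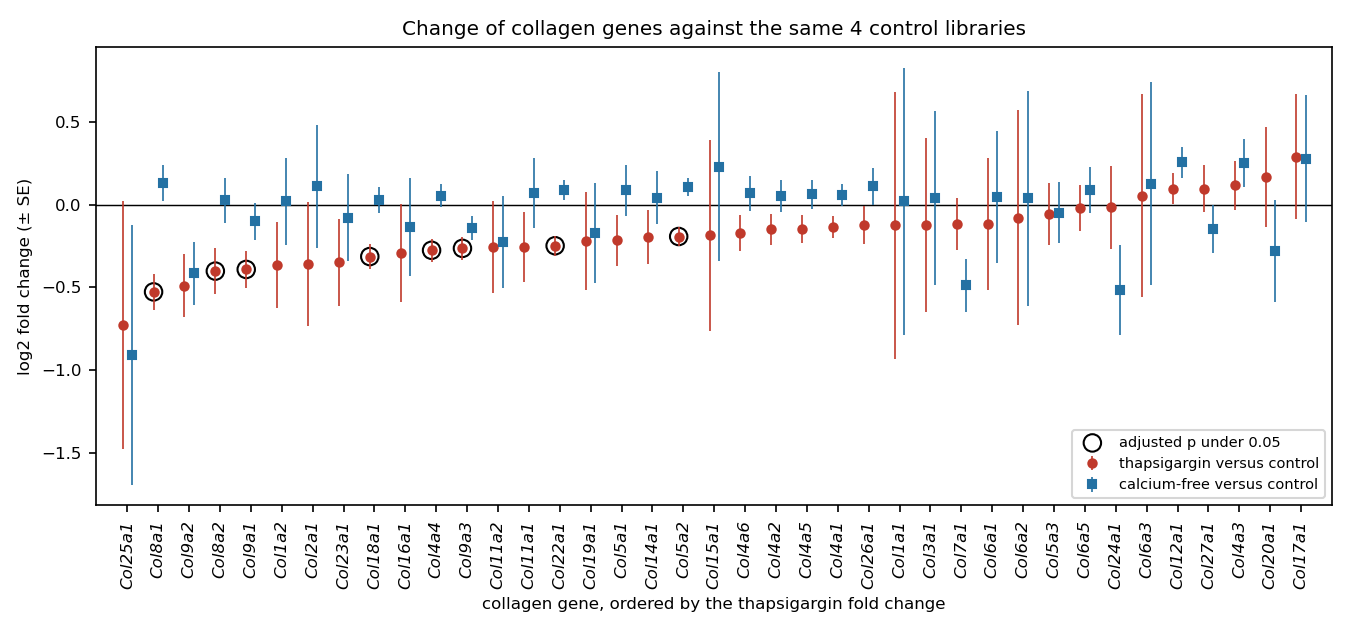
Log2 fold change with SE of the 39 tested collagen genes against the 4 control libraries, for thapsigargin (circles) and calcium-free medium (squares), ordered by the thapsigargin value. Rings mark adjusted p under 0.05: 8 thapsigargin values, all below 0, and no calcium-free value.

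The treatments were also compared directly. With thapsigargin, 6 collagen genes (15.4%) were lower than in calcium-free medium, against 13.2% of all tested genes, and none higher, against 14.6%. DESeq2 called 0 higher and 7 lower, against 15.4% and 13.5% of all genes. At an unadjusted p under 0.05 in edgeR, 1 was higher and 10 lower, but the share of all genes at that threshold was not computed. Against the calcium-free library of the same number, 25 genes (64.1%) were lower in 4 of 4 and 2 (5.13%) higher, against 31.9% and 24.4%. All 4 thapsigargin libraries lay below all calcium-free libraries for 6 genes, against 13.4% of all genes, and above them for none, against 14.9%. Col8a1 differed by -0.66 ± 0.11 (edgeR adjusted p = 0.000802), Col22a1 by -0.34 ± 0.06 (0.00154), Col5a2 by -0.30 ± 0.05 (0.00171), Col4a4 by -0.33 ± 0.07 (0.00442), Col18a1 by -0.34 ± 0.08 (0.00579) and Col8a2 by -0.43 ± 0.14 (0.0348). The Col8a2 call was lost without thapsigargin 2 or 4 or calcium-free 1, 2 or 3, at adjusted p up to 0.0971. Col9a1 (0.0759) and Col9a3 (0.24) were not called. With the replicate block 23 genes (59%) were lower and 1 (2.56%) higher, against 26.9% and 22.4% of all genes. Without the libraries numbered 4, 15 were lower (38.5%) and 1 higher, against 19.4% and 21.7%. The gene that was higher in both was Col20a1, a FACIT collagen, with 3.87, 4.49, 4.38 and 2.30 CPM with thapsigargin and 3.38, 3.25, 2.56 and 1.83 CPM without calcium, 0.45 ± 0.31 with adjusted p = 0.314 over all 12 libraries and 0.00312 with the block. The collagen median was -0.17, against -0.02 over all genes. It was -0.26 without thapsigargin 1, -0.11 without thapsigargin 4 and -0.27 without calcium-free 4.

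Genes that make, process and bind collagen were read from the same fit, beside the background of 14.8% lower and 16.4% higher with thapsigargin (28.2% and 23% with the block) and of 1.55% lower and 3.78% higher without calcium (7.01% and 10.4% with the block). Of 19 genes for collagen modification and folding in the ER, 12 fell and none rose (17 and 1 with the block), with a median of -0.17. Fkbp14, a prolyl isomerase, was -0.34 ± 0.05 (edgeR adjusted p = 0.000209), Plod2, a lysyl hydroxylase, -0.31 ± 0.05 (0.000568) and P3h4, a partner of collagen hydroxylases, -0.19 ± 0.04 (0.00153). The other 9 that fell were P4hb, P3h1, P3h3, Crtap, Ppib, Plod1, Plod3, Colgalt1 and Fkbp10. None of the 19 was called without calcium (1 higher with the block). Of 11 genes for procollagen export, 3 rose and 3 fell with thapsigargin: the coat protein gene Sec31a was 0.19 ± 0.03 (0.000448), the transcription factor gene Creb3l2, whose product induces secretory genes, 0.26 ± 0.04 (0.000349) and the coat protein gene Sec23a -0.20 ± 0.03 (0.000947). Mia2 also rose, and Sec13 and Sar1b fell. Creb3l2 and Mia2 rose without calcium, by 0.21 (0.00975) and 0.17 (0.0383).

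Of 15 tested genes for procollagen processing and crosslinking, 5 fell with thapsigargin (12 with the block) and none rose: Furin, a proprotein convertase, was -0.39 ± 0.05 (edgeR adjusted p = 8.35e-05), Pcolce2 -0.28 ± 0.07 (0.0056) and Pcolce -0.16 ± 0.04 (0.0145), both enhancers of C-propeptide removal, and Adamts14 and Loxl1 fell as well. All 15 values were negative. Of 13 genes for collagen breakdown and its inhibitors, 5 fell (8 with the block) and none rose (1 with the block): the collagen uptake receptor gene Mrc2 was -0.34 ± 0.08 (0.00627), the membrane metalloproteinase gene Mmp15 -0.28 ± 0.07 (0.00709), and Mmp14, Timp2 and Reck fell as well. Without calcium, 1 gene of this list was called (2 with the block, which added Timp3, higher, at 0.000263). It was Mmp16, at 0.18 ± 0.05 (0.0483), a call lost in 9 of the 12 fits that left out 1 library (all but those without control 4, thapsigargin 4 and calcium-free 1), at up to 0.155. Of 9 collagen receptor genes, 2 fell (3 with the block): Ddr1 was -0.24 ± 0.05 (0.005) and Itgb1 -0.22 ± 0.05 (0.00575). None rose, but 1 (Ddr2) did with the block. Without calcium none was called, while with the block 2 rose (Ddr2 and Itga2) and 2 fell (Itga10 and Lair1). Itga2 was also called between the treatments, at -0.36 ± 0.09 (0.00921).

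Of 18 basement membrane partners of collagen IV, 5 fell with thapsigargin (8 with the block) and none rose (1 with the block). Agrn (agrin), a heparan sulphate proteoglycan, was -0.80 ± 0.07 (edgeR adjusted p = 5.43e-06), Nid2 (nidogen 2) -0.43 ± 0.08 (0.00198) and the laminin gene Lamb2 -0.40 ± 0.06 (0.000228), and Lama5 and Sparc fell too. None of the 18 was called without calcium. Of 15 TGF-beta ligands, receptors and targets, 3 rose with thapsigargin and none fell (5 and 9 with the block): Smad7 was 0.79 ± 0.08 (1.29e-05) and Skil 0.57 ± 0.06 (2.94e-05), both inhibitors of the pathway that it induces, and Fn1 (fibronectin) 0.43 (0.0332). Smad7 and Skil also rose without calcium, by 0.57 (0.00162) and 0.31 (0.0142), and 6 of the 15 rose and 1 fell there with the block. The Skil call without calcium was lost without control 1, 2 or 3, at up to 0.053. Tgfbr2 was called between the treatments, at -0.21 ± 0.04 (0.00383), and with the block it was also lower with thapsigargin than in control (0.0189).

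The marker lists of other cells were read in the same comparison. Of 13 tested fibroblast and leptomeningeal markers 2 fell with thapsigargin (Ogn and Islr) and 1 rose (Foxc1), beside the 14.8% lower and 16.4% higher of all genes, and the list summed to 1299 to 1467 CPM against 1470 to 1725 CPM in control. Of 5 tested pericyte and smooth muscle markers 3 fell (Acta2, Tagln and Notch3), with sums of 2550 to 2683 against 2946 to 3240 CPM. Of 7 tested neuronal markers 1 fell (Stmn2) and 1 rose (Gad1), with sums of 352 to 391 against 398 to 430 CPM. In these 3 lists the summed ranges did not overlap. In the other lists they did: 0 of 5 endothelial markers were called (54.8 to 82.1 against 54.7 to 79.7 CPM), 3 of 10 astrocyte markers fell and 1 rose (5694 to 6891 against 6500 to 7729 CPM), 2 of 10 microglial markers fell (122 to 174 against 147 to 234 CPM), 1 of 6 oligodendrocyte markers fell and 1 rose (1630 to 1971 against 1773 to 1889 CPM), and 1 of 8 proliferation markers fell (1603 to 2067 against 1670 to 2184 CPM). Their part in the collagen changes was not tested.

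Several collagen genes lie beside one another or overlap other genes. Col4a1 and Col4a2 lie head to head on chromosome 8 and overlap by 85 bp, Col4a6 and Col4a5 lie head to head on chromosome X 1275 bp apart, and Col3a1 and Col5a2 lie tail to tail on chromosome 1, 24624 bp apart. Col3a1 in the libraries numbered 4 was at 25.9% of the others, while its neighbour Col5a2 was at 95.6%. Another gene of the table overlapped 22 of the 44 collagen genes, in 18 cases on the other strand. The libraries were made with a strand-marking kit, but the strand setting of the counting is not given in the sources used here, so reads of overlapping genes may be shared. Of the 8 genes that fell with thapsigargin, only Col9a3 was overlapped by another gene. That gene, Tcfl5, had at most 41 counts in a library, where Col9a3 had at least 552.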

How the data were processed

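Poly-A RNA of 12 libraries (3 groups of 4, taken with their replicate numbers from the sample titles) was sequenced. The build was GRCm39, and reads went through STAR (2.7.2b) and featureCounts (1.6.4) after bcl2fastq (2.20.0.422) and cutadapt (1.17), as the submitters' processing notes list them. The authors deposited 1 table of estimated counts per gene, in which 14.2 to 15.9% of a library's entries were fractional; the cause is not given in the sources used here. Counts were rounded to whole numbers. Intervals of counts would cover counting error only, since no molecular identifiers are described.

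Genes were tested with edgeR 4.0.16 in R 4.3.3 (filterByExpr with a minimum count of 10, TMM, robust quasi-likelihood fit with 1 mean per group over all 12 libraries), with Benjamini-Hochberg adjustment within a comparison over all tested genes and a threshold of 0.05. Alternatives were DESeq2 1.42.0, other scalings, no filter, the replicate block, only the compared groups, other rounding and leaving out libraries. The fit without a block was tested on simulated counts. These were drawn independently for each library, so they did not hold what the libraries numbered 4 share. Deviations of same-numbered libraries correlated at r of 0.159 to 0.392 for numbers 1 to 3 and 0.814 to 0.836 for number 4. All were over 0.1, and on that ground a fit with number as a block was added. That criterion does not show pairing among numbers 1 to 3, since different numbers there gave 0.238 to 0.412. Without number 4, same-numbered pairs gave -0.144 to -0.00319 and different numbers -0.041 to 0.118. The labels do not say what a number shares.

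The members, classes, gene lists and tests were chosen with earlier results of these data known. Named were all collagen genes called in any comparison, with values per library for the 8 with the smallest p for any group difference and the 8 with the highest level per kb, and the 3 genes of each list with the smallest p; other names were chosen after their values were seen. Promoters came from RefSeq tables of build GRCm38.p6, and protein sequences were not used here.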

Additional observations from a re-analysis of the deposited data

Results flagged for a closer look

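A group of 4 libraries was marked where the gap between its most distant library and the next, divided by the group's range (Dixon's ratio), was above the 95% critical value for 4 libraries. Chance marks about 1 in 20 groups. Of 117 groups of collagen gene levels tested, 28 were marked, from 16 genes, and in all 28 the distant library was replicate 4. The rule was not run over all tested genes, so these counts have no background of the same kind. By lack of overlap, replicate 4 was lower in 12.2% and higher in 11% of all tested genes, so an excess over chance is not particular to collagen genes. Col1a1, Col3a1 and Col6a2 were marked in all 3 groups, each as low. The ratios for control, thapsigargin and calcium-free were 0.902, 0.938 and 0.878 for Col1a1, 0.911, 0.912 and 0.838 for Col3a1, and 0.973, 0.907 and 0.884 for Col6a2. In 2 groups, also low, were Col1a2 (0.907 in control, 0.929 with thapsigargin), Col5a1 (0.887 and 0.890), Col6a1 (0.933 and 0.927), Col5a3 (0.869 with thapsigargin, 0.836 without calcium) and Col6a3 (0.845 in control, 0.830 without calcium). Col11a1 was marked as high, at 0.895 in control and 0.869 with thapsigargin. In 1 group, all low, were Col4a6 (0.954, control), Col20a1 (0.834, control), Col4a5 (0.848, thapsigargin), Col16a1 (0.923, thapsigargin), Col11a2 (0.843, thapsigargin), Col17a1 (0.861, thapsigargin) and Col2a1 (0.832, calcium-free).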

How the results depend on the processing

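Against control, 8 collagen genes were lower with thapsigargin. The count was 5 with no filter on low counts (Col4a4, Col5a2 and Col8a2 lost), against 5.01% of all genes in that fit. It was 21 with the replicate block (28.2% of all genes) and 14 without the libraries numbered 4 (21.2%). In a fit added after seeing the data, it was 13 without them and with the block (20%). Leaving out 1 library gave 0 to 0 higher (13.7 to 17.6% of all genes), 6 to 9 lower (11.2 to 15.8%) and medians of -0.264 to -0.0744. For calcium-free against control, the lower count of 0 became 1 (Col20a1) without the libraries numbered 4, against 5.16% of all genes. Leaving out 1 library gave 0 to 1 higher, 0 to 1 lower (Col12a1 and Col7a1, both without calcium-free replicate 1) and medians of -0.0691 to 0.0979. Of all genes, 1.71 to 4.93% were higher and 0.44 to 3.48% lower in those fits. For thapsigargin against calcium-free, the lower count of 6 became 23 with the replicate block, 15 without the libraries numbered 4 and 17 with both. The shares of all genes were 26.9%, 19.4% and 18%. In each of these fits 1 gene (Col20a1) was higher, against 22.4%, 21.7% and 20.7% of all genes. Leaving out 1 library gave 0 to 1 higher (Col7a1, without calcium-free replicate 1), 5 to 7 lower and medians of -0.271 to -0.109. Of all genes, 11.5 to 15.4% were higher and 9.4 to 14.8% lower in the fits that left out 1 library. The causes of these changes were not tested. Of all genes called with thapsigargin against control, 52.5% were higher with TMM, 57.7% with DESeq2's size factors and 44.6% with upper quartile factors. At under 1 CPM (Col17a1, Col19a1, Col24a1, Col25a1), depth limits what could be detected.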
